A study of Mus musculus with 4 samples.

Results

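The p53 target genes are a list of 35 genes named as targets of the transcription factor p53. They were not tested here for a response to p53 in mouse cells. Their 5 groups are cell cycle and its arrest, apoptosis, DNA repair, feedback on p53, and growth and stress signalling, by what their products do. Members were found by their gene symbol among the array's gene probes, and the brightest probe stood for a gene with several. Of the 35 listed genes, 34 were found among the 27484 gene names on the array. The 35th, Aen, an exonuclease gene of the apoptosis group, had no probe under its own symbol and is reported once, under the older symbol Isg20l1, outside all counts.

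RNA came from mouse embryonic fibroblasts (MEFs), primary cells grown out of mid-gestation embryos, cultured in serum-containing medium and collected in logarithmic growth with no DNA-damaging treatment named in the labels. There were 4 RNAs, 1 per genotype: CycG1-/- (called G1KO), its CycG1+/+ wild type (WT), CycG2-/- (called G2KO) and its CycG2+/+ WT. The strain is labelled C57BL/6J for all 4, although the source text of the cyclin G2 pair reads C57BL/7J. In the CycG1-/- allele, according to the study's methods, every coding exon of Ccng1 was replaced by a neomycin resistance cassette under a PGK promoter. Each knockout RNA was hybridised together with its own WT on 2-colour Agilent arrays, on 2 arrays with the Cy3 and Cy5 dyes exchanged. The 2 arrays of a pair held the same RNAs, so an SD over them is the error of labelling and hybridisation. As far as the labels tell, no genotype had a second culture, so nothing was tested and p-values are absent. The Ccng2 probe did not fall in the cyclin G2 pair (values below), so its knockout is called the RNA labelled G2KO, and the direction of every ratio of that pair rests on the label. A log2 ratio is knockout over WT, so that 1 stands for 2-fold, and a gene was called where the ratio was 1 or more in size, in the same direction, on both arrays of a pair.

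p53 is held at a low level in growing cells because MDM2, the product of one of its own target genes, marks it for destruction, and MDM4 blocks its activity. DNA damage or other stress frees p53, which then binds its target genes and raises p21, the inhibitor of cyclin-dependent kinases encoded by Cdkn1a, along with death receptors, mitochondrial pore proteins and repair factors. In cultured MEFs the p53 pathway, with the ARF product of Cdkn2a upstream of it, is known to limit proliferation. Cyclin G1 is itself the product of a p53 target gene, and both G cyclins bind protein phosphatase 2A.

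p53 binds DNA as a tetramer at a site made of a pair of 10-base units. The promoters of members are shown where they hold the unit's consensus, searched under the name p53 decamer, because this is the feature by which p53 recognises its targets. The decamer consensus equals its own reverse complement, so a search of 1 strand covered both. RefSeq promoters (build GRCm38.p6), from 250 bases before a start to 50 after it, were held for 27 of the 35 members, and 11 of these 27 had a decamer in at least 1 promoter, or 40.7%. Among all 27025 genes with a promoter the share was 9.55%. A pair of decamers at most 13 bases apart lay in 24 of 32851 promoters, or 0.0731%. Cdkn1a was the only member with such a pair, in the more upstream of its 2 promoters, and its other promoter had no decamer. The 250 bases before that upstream start and shorter stretches around the decamer of 4 members called in the RNA labelled G2KO read as follows, 5′ to 3′ on the gene's strand, with the decamers in capitals.
Cdkn1a, chr17:29090729-29090978, plus strand: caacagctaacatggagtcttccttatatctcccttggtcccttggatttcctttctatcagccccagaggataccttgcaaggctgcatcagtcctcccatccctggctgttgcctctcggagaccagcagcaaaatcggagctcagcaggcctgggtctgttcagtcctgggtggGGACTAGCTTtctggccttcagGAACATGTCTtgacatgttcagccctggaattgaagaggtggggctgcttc
Mdm2, chr10:117710910-117710969, minus strand: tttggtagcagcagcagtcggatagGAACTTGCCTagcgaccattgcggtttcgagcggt
Ckap2, chr8:22185988-22186047, minus strand: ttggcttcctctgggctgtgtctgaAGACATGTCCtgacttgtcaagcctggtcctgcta
Siva1, chr12:112644585-112644644, plus strand: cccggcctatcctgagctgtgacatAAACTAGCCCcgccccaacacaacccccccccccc
Polk, chr13:96519384-96519437, minus strand: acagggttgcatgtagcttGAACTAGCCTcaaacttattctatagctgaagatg

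The Cdkn1a decamers begin 73 and 51 bases before the start, the Mdm2 decamer 186, the Ckap2 decamer 203, the Siva1 decamer 218 and the Polk decamer 231. The 10 bases directly after the second Cdkn1a decamer miss the consensus by their first base only. They are therefore not in capitals and did not count as a decamer. A match describes the letters of these windows. It does not show that p53 binds there in MEFs, or that a marked stretch is a known p53 site of its gene. Known sites, which can lie outside the windows, were not looked up. Psrc1, Eda2r and Ephx1, which had 3 of the larger ratios in the RNA labelled G2KO, had no decamer in the promoters held for them. Btg2, Rprm and Phlda3, called higher there too, also had none. Gtse1, likewise called higher, had a decamer that did not begin before its start. For Tnfrsf10b, Trp53inp1 and Zmat3, also called higher, no promoter was held, nor for Pmaip1, Perp, Ddb2, Xpc and Rrm2b. Gadd45a, Bax, Ei24 and Sesn1 had a decamer, not shown, and were called in neither pair. Aen, which is outside the counts of ratios, had a decamer too. Whether a decamer goes with a higher ratio was not tested.

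The probes behaved alike on the swapped arrays. Over the probes well above background, the log2 ratios of the 2 arrays correlated at r = 0.952 for the G1KO pair and r = 0.959 for the G2KO pair, across probes, which are not independent replicates. The pooled SD between arrays was 0.131 and 0.129, and for the members 0.131 and 0.115. The deleted gene checked 1 label of the 2. Ccng1 was lower in G1KO, with log2 ratios of -6.76 and -6.57, whereas the Ccng2 probe did not fall in the other pair, with 0.28 with the knockout in Cy5 and -0.10 with it in Cy3. No source used here says which bases the Ccng2 allele lacks, so this probe may not report the deletion. In both pairs the knockout RNA had far more Xist signal (log2 ratios 7.54 and 7.24) and less of Ddx3y (-4.97 and -4.26), so the sex of the embryos differed along with the genotype, and their effects cannot be told apart. All 34 members were well above background in all 4 RNAs on every array, so none entered through 1 genotype alone.

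Most p53 target genes were lower in G1KO than in its WT and higher in the RNA labelled G2KO than in its WT. In G1KO, 5 of 34 members were called lower (Perp, Fas, Eda2r, Ephx1 and Plk2) and 0 higher, against 4.49% of all genes called lower and 2.49% called higher. Their median log2 ratio was -0.49, against 0.00 for the 16499 genes tested. On both arrays 26 of the 34 members lay below 0, or 76.5%, against 41.1% of all genes. In the RNA labelled G2KO, 15 of 34 members were called higher and 1 lower, against 2.75% and 4.86% of all genes. The median was 0.86, against -0.02 for the 16462 genes tested, and 27 members lay above 0 on both arrays, or 79.4%, against 39.9%. With arrays centred on their median in place of loess, 1 member was called in G1KO, and 8 higher and 0 lower in the RNA labelled G2KO.

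**Figure D1:**
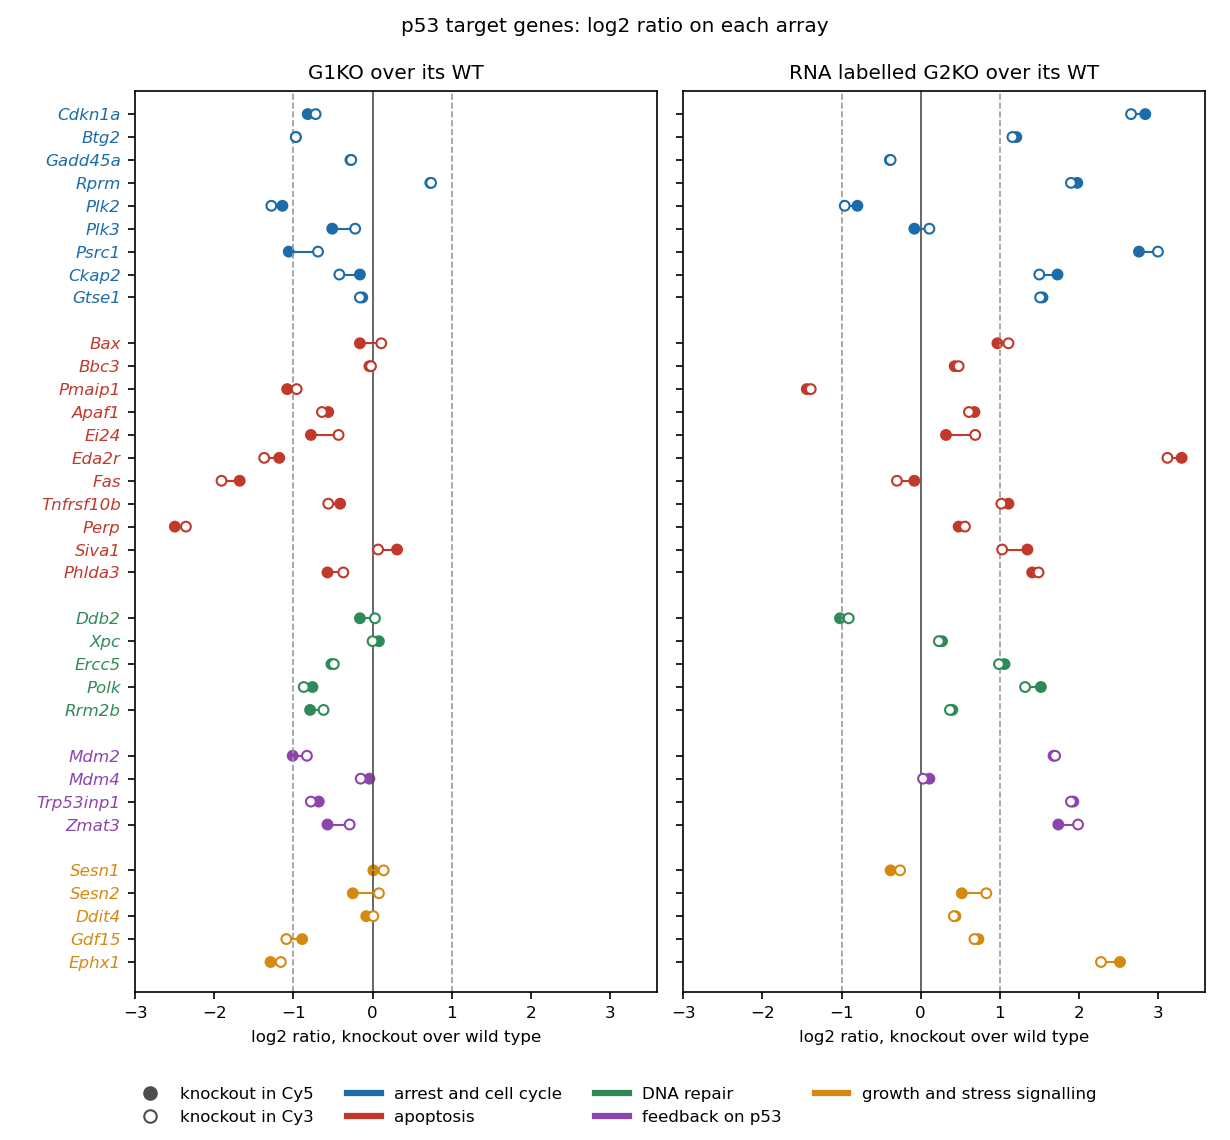
Log2 ratio of knockout over WT (x axis) for the 34 p53 target genes (rows, coloured by group) on each array, with the knockout RNA in Cy5 (filled) or Cy3 (open), for G1KO (left) and the RNA labelled G2KO (right). Dashed lines mark 2-fold, and most genes sit left of 0 in G1KO and right of 0 in the RNA labelled G2KO, with the 2 arrays close together.

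The curve of the members lay to 1 side of the curve of all genes over most of its length in both comparisons. It did so too when the 2 WT RNAs were set against each other, where the median of the members was -0.96.

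**Figure D2:**
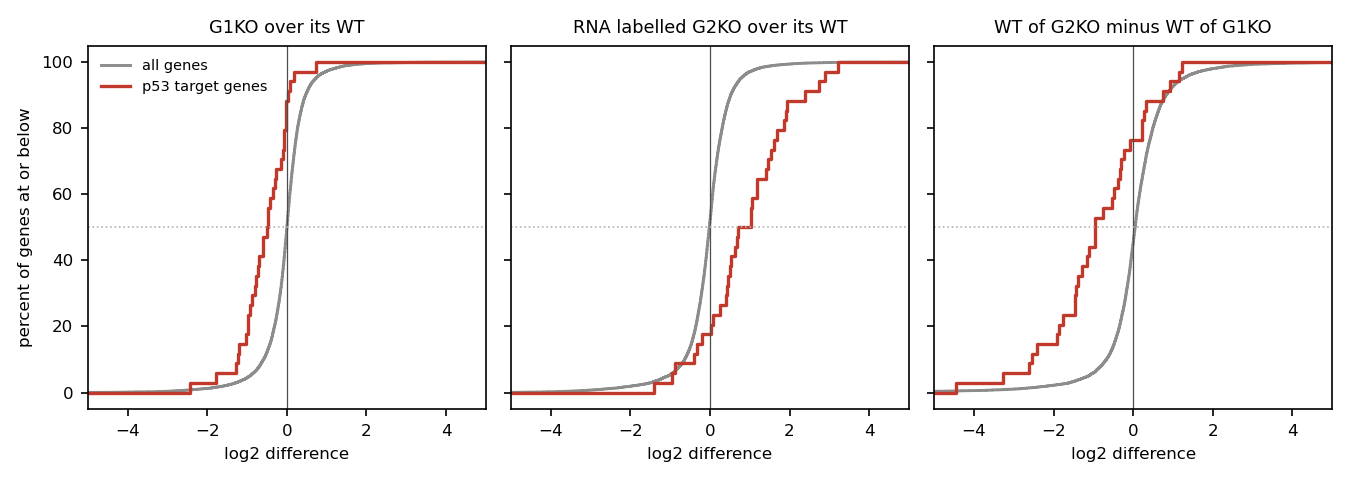
Cumulative percent of genes (y axis) at or below a given log2 difference (x axis, from -5 to 5) for the p53 target genes (red) and all genes measured in all 3 panels (grey): G1KO over its WT, RNA labelled G2KO over its WT, and WT of G2KO minus WT of G1KO. The red curve lies left of the grey one on the left and right panels (medians -0.49 and -0.96) and right of it in the middle (0.86).

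Genes of the cell cycle and its arrest had 1 of 9 called lower in G1KO (median -0.36). In the RNA labelled G2KO 6 of 9 were called higher (median 1.53), Psrc1, Ckap2 and Gtse1 of microtubules among them. Cdkn1a, which encodes p21, gave -0.82 and -0.72 on the G1KO arrays and 2.84 and 2.66 on the G2KO arrays, the array with the knockout in Cy5 first here and in every such pair of values. Its means were -0.77 ± 0.07 and 2.75 ± 0.13 (SD, 2 arrays), a 6.72-fold higher signal in the RNA labelled G2KO, and only that ratio was called. Psrc1, which encodes a microtubule protein of the mitotic spindle, had -1.06 and -0.69 in G1KO and 2.76 and 3.00 in the RNA labelled G2KO. Its G1KO mean of -0.87 ± 0.26 missed the call on 1 array, and 2.88 ± 0.17 was a 7.34-fold difference.

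Btg2, an antiproliferative gene, gave -0.97 on both G1KO arrays, just short of 2-fold, and 1.21 and 1.16 on the G2KO arrays. Ckap2 and Gtse1, whose products also attach to microtubules, differed little in G1KO. For Ckap2 the values were -0.16 and -0.42 against 1.73 and 1.5 in the RNA labelled G2KO, and for Gtse1 they were -0.13 and -0.16 against 1.54 and 1.51. Both were called only in the second comparison. Rprm, which encodes Reprimo, an arrest factor, went the same way in both: 0.73 and 0.74 in G1KO, the highest mean ratio of any member there, and 1.98 and 1.90 in the RNA labelled G2KO.

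The remaining genes of the cell cycle group were not called higher in the RNA labelled G2KO. Plk2, a polo-like kinase gene, was called lower in G1KO (-1.14 and -1.28) and gave -0.80 and -0.96 in the RNA labelled G2KO. Its relative Plk3 gave means of -0.36 ± 0.20 and 0.02 ± 0.14. Gadd45a, a stress sensor, gave -0.28 and -0.27 in G1KO and -0.39 and -0.38 in the RNA labelled G2KO, so it was slightly lower in both and called in neither.

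Of the 11 apoptosis genes measured, 3 were called lower in G1KO, and 4 higher and 1 lower in the RNA labelled G2KO, with medians of -0.60 and 0.64. Eda2r, a receptor of the tumour necrosis factor family whose gene lies on the X chromosome (probe chrX:93536838-93536897 of build mm8), gave -1.18 and -1.37 in G1KO and 3.30 and 3.12 in the RNA labelled G2KO, a 9.23-fold difference. It was called in both comparisons, in opposite directions. The part of sex in these ratios was not tested.

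Fas, the death receptor gene, was called in G1KO only: -1.68 and -1.91 there, against -0.08 and -0.30 in the RNA labelled G2KO. Perp, a membrane protein gene of desmosomes and apoptosis, had the lowest ratio of the list in G1KO, -2.50 and -2.36 (5.39-fold lower), and gave 0.48 and 0.56 in the RNA labelled G2KO. Tnfrsf10b, the gene of the mouse TRAIL receptor, was called higher in the RNA labelled G2KO (1.11 and 1.02) and gave -0.41 and -0.56 in G1KO. The receptor genes Eda2r, Fas and Tnfrsf10b thus had a lower signal in G1KO in common, called for 2 of them, and differed in the other pair.

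Phlda3, an inhibitor of AKT, gave -0.57 and -0.37 in G1KO and was called higher in the RNA labelled G2KO, with 1.41 and 1.49. Siva1, a proapoptotic protein gene, was called higher there too (1.35 and 1.03) and gave 0.31 and 0.07 in G1KO. Pmaip1, which encodes the BH3-only protein Noxa, was the exception of the group. It was called lower in the RNA labelled G2KO (-1.44 and -1.39), and its values in G1KO, -1.08 and -0.96, missed the call on 1 array.

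Bax, the gene of the pore protein, lay at the limit in the RNA labelled G2KO, with 0.97 and 1.11, and gave -0.16 and 0.11 in G1KO, where the arrays differed in sign. Bbc3, which encodes the BH3-only protein PUMA, gave -0.04 and -0.02 in G1KO and 0.43 and 0.48 in the RNA labelled G2KO. Neither was called. Apaf1, of the apoptosome, and Ei24, of the endoplasmic reticulum, had means of -0.60 and -0.61 in G1KO and of 0.64 and 0.51 in the RNA labelled G2KO, again uncalled. Under the older symbol Isg20l1, Aen had mean ratios of -0.22 in G1KO over WT and 1.59 for the other knockout.

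Of the 5 DNA repair genes, none was called in G1KO (median -0.50) and 1 was called higher in the RNA labelled G2KO (median 0.39). That 1 was Polk, the gene of the translesion polymerase kappa, with 1.52 and 1.32, against -0.76 and -0.87 in G1KO. Ercc5, the gene of the XPG nuclease, reached 1.06 and 0.99 in the RNA labelled G2KO and so missed the call on 1 array. Its mean in G1KO was -0.50 ± 0.02.

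The genes that recognise ultraviolet damage went otherwise. Ddb2 gave -0.16 and 0.03 in G1KO and -1.02 and -0.91 in the RNA labelled G2KO, a lower signal that missed the call on 1 array. Xpc, its partner in nucleotide excision repair, gave 0.08 and 0.00 in G1KO and 0.27 and 0.23 in the RNA labelled G2KO. Rrm2b, a ribonucleotide reductase subunit that supplies nucleotides for repair, had means of -0.70 ± 0.12 and 0.39 ± 0.02.

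The feedback genes moved together with 1 exception. Of 4, none was called in G1KO (median -0.58), and 3 were called higher in the RNA labelled G2KO (median 1.78). Mdm2, the ubiquitin ligase gene, gave -1.01 and -0.83 in G1KO and 1.68 and 1.70 in the RNA labelled G2KO, a 3.23-fold difference. Trp53inp1, whose product promotes p53 activity, gave -0.68 and -0.78, and then 1.93 and 1.90. Zmat3, an RNA-binding zinc finger gene, gave -0.57 and -0.29, and then 1.74 and 1.99. Mdm4, the inhibitor related to Mdm2, stayed near 0 in both: -0.04 and -0.15 in G1KO, and 0.11 and 0.03 in the RNA labelled G2KO.

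Growth and stress signalling held 1 gene called in each comparison, the same gene. Ephx1, which encodes the microsomal epoxide hydrolase, was lower in G1KO (-1.29 and -1.16) and higher in the RNA labelled G2KO (2.52 and 2.28, a 5.29-fold difference). Sesn1, a sestrin gene, went against most members, with 0.01 and 0.14 in G1KO and -0.38 and -0.26 in the RNA labelled G2KO. Sesn2, the related gene, gave -0.25 and 0.08, and then 0.52 and 0.83. Neither sestrin was called. Ddit4, an inhibitor of growth signalling through mTORC1, had means of -0.03 ± 0.06 and 0.43 ± 0.01, and Gdf15, a secreted stress factor, had -0.99 ± 0.14 and 0.71 ± 0.04.

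Setting the comparisons side by side, 21 of 34 members (61.8%) were lower on both G1KO arrays and higher on both G2KO arrays, against 16.9% of the 15625 genes tested in both pairs. The reverse pattern held for 1 member, Sesn1, and for 19% of all genes. Members lower on all 4 arrays numbered 4 (11.8%, against 17.9% of all genes), and members higher on all 4 numbered 2 (5.88%, against 16.4%). Were the labels of the cyclin G2 pair exchanged, the 21 members would be lower in both knockouts. Past 2-fold in both, 2 members were called in opposite directions (Eda2r and Ephx1), against 1.14% of genes, and 0 in the same direction, against 0.986%. With median centring both lost their call in G1KO, so that 0 were called in opposite directions. The pairs share no RNA, but each holds 1 culture per genotype, and the difference between their ratios was not tested.

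**Figure D3:**
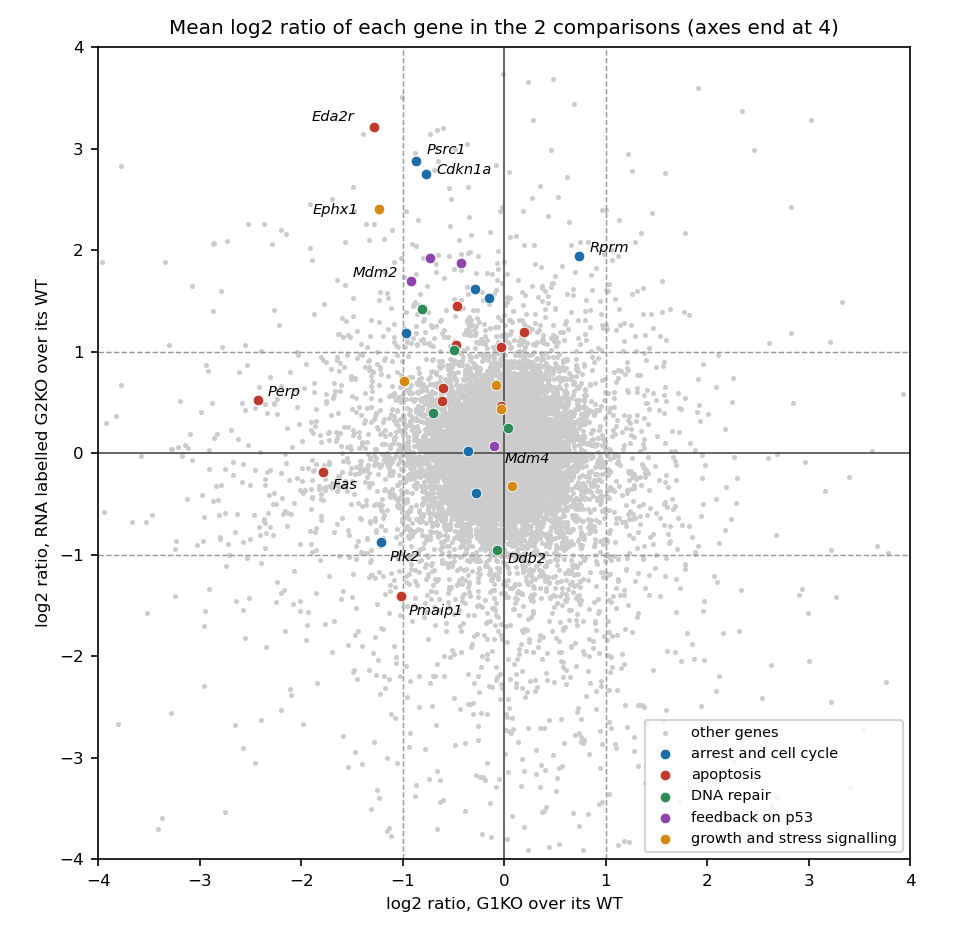
Mean log2 ratio in G1KO over its WT (x axis) against that in the RNA labelled G2KO over its WT (y axis), 1 point per gene, with the p53 target genes coloured by group and other genes in grey. Dashed lines mark 2-fold, axes end at 4, and most members lie to the upper left, with Eda2r and Ephx1 past 2-fold on both axes and Pmaip1 and Plk2 in the lower left.

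The levels in the 4 RNAs show in which of them a member stood apart. Levels are log2 signals after normalisation between arrays, were compared for 1 probe at a time and within 1 dye, and differed between 2 RNAs where both dyes showed 2-fold in the same direction. The WT of G2KO had the lowest mean level of 20 of 34 members, or 58.8%, against 22.2% of the 14385 genes above background throughout. The RNA labelled G2KO had the highest level of 18 members (52.9%, against 28.9% of all genes) and the WT of G1KO of 13 (38.2%, against 24%), while G1KO was highest for 0, against 16.7% of all genes. Relative to the WT of G1KO, 15 members were called lower in the WT of G2KO and 2 higher (Sesn1 and Ddit4), against 6.25% and 6.68% of all genes. These 2 WT RNAs were never on 1 array, and the comparison uses the same RNAs as the knockout ratios above, so it is no separate support for them.

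For Cdkn1a the log2 level, Cy3 first and Cy5 after it, was 11.66 and 11.58 in G1KO, 12.40 and 12.38 in its WT, 12.74 and 12.70 in the RNA labelled G2KO, and 9.86 and 10.08 in the WT of G2KO. The WT of G2KO was lowest by a wide margin, and the other 3 lay within 2-fold of their neighbours in this order. Mdm2 stood at 12.22 and 12.21 in G1KO, 13.22 and 13.06 in its WT, 13.01 and 12.95 in the RNA labelled G2KO, and 11.27 and 11.31 in the WT of G2KO. Here the WT of G1KO and the RNA labelled G2KO differed by 0.16 on average, and the WT of G2KO was again lowest.

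Eda2r read 9.22 and 9.30 in G1KO, 10.48 and 10.59 in its WT, 10.36 and 10.57 in the RNA labelled G2KO, and 7.27 and 7.24 in the WT of G2KO. In all, 5 members were lower in the WT of G2KO than in each of the other 3 RNAs by 2-fold in both dyes: Cdkn1a, Btg2, Psrc1, Eda2r and Trp53inp1. That is 14.7% of members, against 70 of 14385 genes, or 0.487%.

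Other members stood apart in another RNA. Perp read 10.82 and 10.73 in G1KO, 13.23 and 13.18 in its WT, 9.27 and 9.27 in the RNA labelled G2KO, and 8.80 and 8.71 in the WT of G2KO. It was thus highest in the WT of G1KO and called lower in the WT of G2KO than there, with a log2 difference of -4.43 in Cy3 and -4.46 in Cy5. Fas was highest in the WT of G1KO too, at 11.01 and 11.14, and lowest in G1KO, at 9.23 and 9.33. Rprm was highest in the RNA labelled G2KO (10.63 and 10.62) and read 8.45 and 8.47 in the WT of G1KO.

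**Figure D4:**
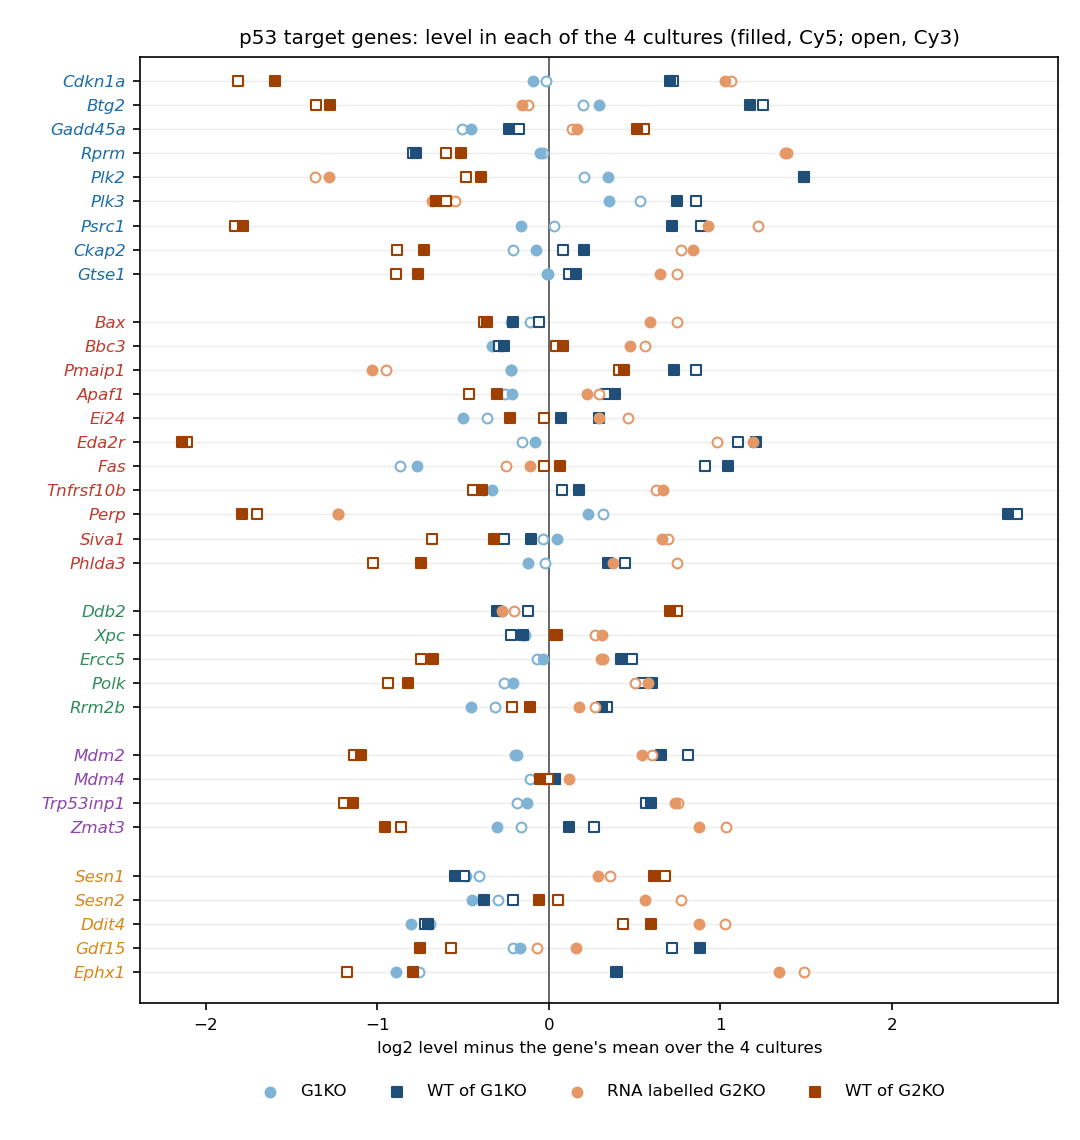
Log2 level minus the gene's mean over the 4 RNAs (x axis) for the 34 p53 target genes (rows, names coloured by group as in the plot of ratios), in G1KO (light blue circles), its WT (dark blue squares), the RNA labelled G2KO (light orange circles) and its WT (brown squares), with Cy5 filled and Cy3 open. The brown squares are leftmost for 20 members, among them Cdkn1a, Psrc1, Eda2r and Mdm2, while for Perp and Fas the dark blue squares stand to the right of the rest.

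The other pairs of RNAs that were not on 1 array had smaller median differences of the members. The RNA labelled G2KO exceeded G1KO by 2-fold in both dyes for 8 members and fell below it for 3, with a median difference of 0.74, against 5.02% and 5.46% of all genes. The RNA labelled G2KO and the WT of G1KO had a median difference of 0.18, with 2 members higher and 6 lower, against 5.89% and 7.75% of all genes. The 6 were Perp, Plk2, Pmaip1, Plk3, Btg2 and Fas, and the 2 higher were Rprm and Ddit4. G1KO was above the WT of G2KO for 7 members and below it for 2, with a median difference of 0.49, against 3.68% and 5.38% of all genes.

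Other probes of the same genes mostly gave ratios of the same sign. The array held 26 further probes for 17 members. Of the 25 tested in G1KO, all 25 had the sign of the brightest probe, and in the RNA labelled G2KO 24 of 26 did. The exceptions were dim probes of Fas (0.16 against -0.19) and of Sesn1 (0.03 against -0.32). Of the 15 further probes of members called in that RNA, 15 had the same sign and 10 were called as well. Of the 4 further probes of members called in G1KO, 4 had the same sign and only 1, of Ephx1, was called. Those of Fas (-1.07) and Eda2r (-0.81 and -0.58) were not called there. The second Psrc1 probe gave -0.67 and 2.28, in G1KO and the RNA labelled G2KO, and the third -0.63 and 1.93. The dimmer probes of Eda2r gave smaller ratios than its brightest, 1.62 and 0.94 in the RNA labelled G2KO. Probes of Cdkn1a, Bax, Fas and Mdm2 were printed 10 times on each array, and the SD over the 10 spots was between 0.01 and 0.06. The 10 spots of Bax in the RNA labelled G2KO ran from 0.94 to 1.01 on the array with the knockout in Cy5 and from 1.05 to 1.15 on the other, so this gene lay on the 2-fold line on 1 array.

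**Figure D5:**
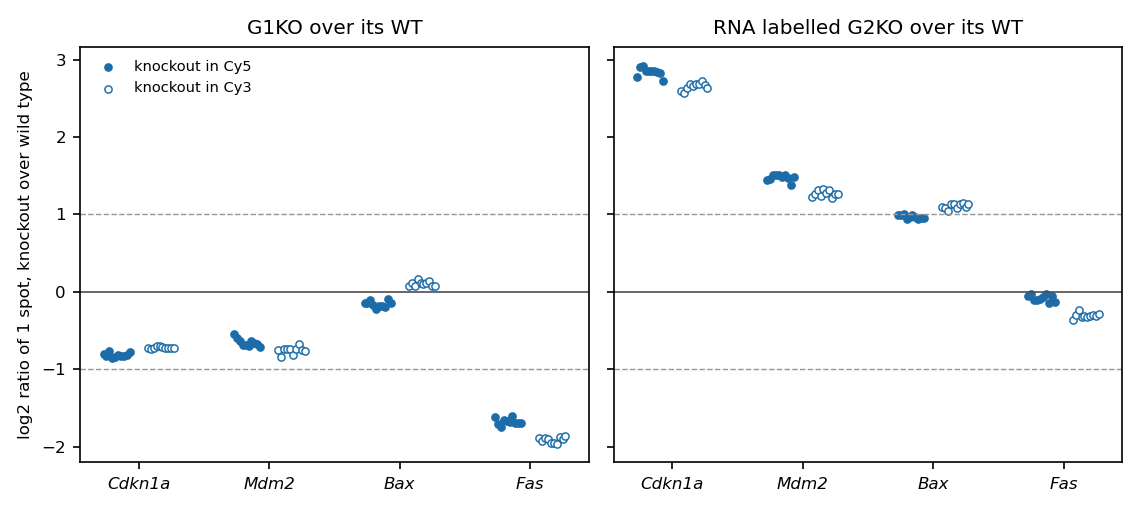
Log2 ratio of each single spot (y axis) for the probes of Cdkn1a, Mdm2, Bax and Fas printed 10 times per array (x axis), with the knockout RNA in Cy5 (filled) or Cy3 (open), in G1KO (left) and the RNA labelled G2KO (right). The spread among spots of 1 array is smaller than the gap between the swapped arrays for Bax and Fas, and the Mdm2 probe shown is the dimmer of its 2.

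Most genes that control p53 were not called, as was so for most genes on the array. Of the p53 regulators, 16 were tested in G1KO with 0 called, against 2.49% of all genes called higher and 4.49% lower. In the other pair 17 were tested with 2 called, 1 higher and 1 lower, against 2.75% and 4.86% of all genes. Trp53, the p53 gene, gave -0.10 and -0.14 in G1KO and 0.42 and 0.49 in the RNA labelled G2KO. The lowest of its mean log2 levels was 9.85, in the WT of G2KO. Those of the RNA labelled G2KO, G1KO and the WT of G1KO were 10.31, 10.76 and 10.88. Between the 2 WT RNAs the difference, -0.99 in Cy3 and -1.06 in Cy5, missed the call in 1 dye. Atm and Chek2, kinases of the damage response, gave means of 0.10 and -0.30, and then 0.41 and -0.05, in the same order of pairs. Cdkn2a, which encodes the p16 and ARF proteins from 1 locus that this probe cannot separate, was the large exception. It was lower in the RNA labelled G2KO, at -3.21 and -3.67, and gave 0.96 and 0.97 in G1KO. Its mean log2 level was 13.07 in the WT of G2KO, 10.70 in G1KO, 9.74 in the WT of G1KO and 9.63 in the RNA labelled G2KO, so the RNA in which most members were lowest had the highest Cdkn2a signal. Trp63, of the p53 family, was detected above background in 1 RNA alone, the one labelled G2KO, and was at least 2.5-fold higher there than in its WT, whose value was set to the dimmest signal detected on each array or the probe's own, whichever was higher.

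A further list of 24 p53 targets had medians of the same sign as the members. It was chosen, like them, with earlier results of these data known, so it is no separate support. In G1KO, 5 of 20 tested were called lower and 0 higher, against 4.49% and 2.49% of all genes, with a median of -0.39. They were the deleted Ccng1, Cd82 (a tetraspanin, -1.95 and -1.74), Dgka (diacylglycerol kinase alpha, -1.80 and -1.68), Dcxr (a carbonyl reductase, -1.38 and -1.24) and Sulf2 (a heparan sulfatase, -1.14 and -1.15). In the RNA labelled G2KO, 6 of 22 were called higher and 1 lower, against 2.75% and 4.86% of all genes, with a median of 0.70. Ccng1 led, with 2.65 and 2.69, followed by Ak1 (adenylate kinase, 1.97 and 1.94), Pidd1 (a death domain protein, 1.77 and 1.62), Zfp365 (a zinc finger gene, 1.30 and 1.31), Epha2 (an ephrin receptor, 1.16 and 1.30) and Pltp (a lipid transfer protein, 1.24 and 1.18). Cd82 was the 1 called lower, with -2.30 and -2.24, and so was lower in both knockouts. Ccng1, intact in the cyclin G2 pair, had a mean log2 level of 13.81 in the RNA labelled G2KO, 13.67 in the WT of G1KO and 11.14 in the WT of G2KO, which is the order of Cdkn1a. Genes of the G2 and M phases, which p53 lowers through p21, had 0 of 10 called in either pair (medians 0.00 and 0.57). In the RNA labelled G2KO all 10 means lay above 0, against 7912 of 16462 genes tested. The means of Ccnb2 and Aurka were only 0.01 there, and Aurka differed in sign between the arrays (-0.11 and 0.13).

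Markers of cell type differed between the RNAs alongside the members. Of 10 fibroblast markers, 1 was called lower and 2 higher in G1KO, and 6 were called lower in the RNA labelled G2KO, where Pdgfra gave -4.63 and Thy1 -3.22. The defining collagens Col1a1 and Col1a2 were well above background in all 4. Both were among the 6 called lower, at -1.37 and -1.40 for Col1a1 and -2.02 and -2.61 for Col1a2. Of 5 mesothelial markers, 4 were called lower in G1KO and Krt19 higher (2.90). In the cyclin G2 pair Wt1, Upk3b and Lrrn4 were not well above background in either RNA, Msln was called higher (1.45 and 1.74) and Krt19 lower (-1.40). The WT of G1KO, in which Perp and Fas were highest, also had the highest levels of Upk3b (15.06), Wt1, Msln and Lrrn4. Krt19 was instead highest in G1KO (12.47). Of 4 epithelial markers, Krt14 (13.75) and Cdh1 (7.19) were highest in the WT of G1KO. Krt5 stayed between 6.37 and 6.52 in all 4 RNAs, and Epcam was not well above background in any. All 6 neural markers were called higher in the RNA labelled G2KO, from 3.37 to 7.02, against 2.75% of all genes. Sox2 had a log2 level of 12.35 there and 6.75 in its WT. The neural list was chosen with earlier results of these data known, so its count is no separate support. The study itself lists En2, Foxa2, Sox2, Gpm6b and Sox6 among the genes raised in G2KO. In G1KO, 2 of the 4 tested were called higher too, Nes (2.34) and Gpm6b (2.25). Foxa2 had its highest level, 13.71, in the WT of G1KO, where Sox2 was not well above background. Of the blood and endothelial markers, Ptprc, Itgam, Pecam1 and Cdh5 were not well above background in any of the RNAs on either array, while Cd14 (mean log2 levels from 8.58 to 9.63) and Cd68 (from 6.79 to 6.97) were in all 4. Emcn was called lower in G1KO (-2.65, with a level of 9.30 in its WT), and Kdr was well above background in both RNAs of the cyclin G1 pair and in neither of the other. The part of cell make-up in the p53 target results was not tested, and in bulk RNA more cells with a transcript and more transcript per cell cannot be told apart.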

How the data were processed

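Dye-swap data on 4 RNAs were analysed from the deposited scanner files of 4 arrays (2 colours, 43379 gene spots each). The authors scanned the arrays and made the mean and background intensity of each spot with Agilent Feature Extraction (version 9.1 per the submitters' notes, 10.5.1.1 per the file headers). The scanner files also hold a log10 ratio of Cy5 over Cy3, and the deposited series table holds the same log10 ratios (r = 0.9999991 or -0.9999991 for the G1KO arrays, the sign turned on the swapped array), with a median of 0 per array. Scale is log10, and direction in the table is knockout over WT. Probe positions are on build mm8.

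Intensities were corrected by normexp (offset 50) and normalised by loess in limma 3.58.1 (R 4.3.3), with control and outlier-flagged spots (114 to 203 per array) given no weight. Spots of a probe were averaged, ratios turned to knockout over WT and the 2 arrays averaged, with no test, since each genotype had 1 culture. A probe was tested where at least 1 genotype was well above background on both arrays. Levels used Aquantile normalisation between arrays. The call rule was checked on simulated ratios, planted well past 2-fold in the brighter probes. Planted ratios near 2-fold or in dim probes were not tried. Python 3.11.15 made the counts. Precision is limited by the number of arrays, and any reading about a genotype by its 1 culture. No spot was saturated.

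The members, their groups and the other lists were chosen with earlier results of these data known. The text names every called member, with Cdkn1a, Mdm2, Mdm4, Bax, Bbc3, Pmaip1, Fas, Ddb2, Xpc, Sesn1, Sesn2 and Gadd45a, on each array. The others are given by means. Of the other p53 targets and p53 regulators it names every called gene with Ccng1, Ccng2, Trp53, Cdkn2a, Atm and Chek2. The accession of 31 members' probes named the same gene in RefSeq, and none named another. Of the genes of other lists, 8 were matched by an older symbol. Alternatives were other background corrections, median centring, the scanner's ratios, filters, thresholds of 1.5-fold and 4-fold, the median of a gene's probes, older symbols and leaving out each array.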

Additional observations from a re-analysis of the deposited data

Results flagged for a closer look

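Members are given here where every array of 1 pair moved one way and every array of the other pair the opposite way. In none of these cases was the difference between the pairs tested, since each genotype had 1 culture. The median log2 ratio of the members was negative on both G1KO arrays (-0.56 and -0.46) and positive on both G2KO arrays (0.85 and 0.91), a difference of 1.36 between the pair means, G2KO pair minus G1KO pair. Among single genes the same difference was 4.48 for Eda2r, 3.75 for Psrc1, 3.63 for Ephx1, 3.52 for Cdkn1a and 2.95 for Perp. It was 2.65 for Trp53inp1, 2.61 for Mdm2, 2.29 for Zmat3, 2.23 for Polk and 2.15 for Btg2. Phlda3 gave 1.92, Ckap2 1.91, Gdf15 1.69, Gtse1 1.67, Tnfrsf10b 1.55 and Ercc5 1.53. Apaf1 gave 1.24, Ei24 1.11 and Rrm2b 1.09. For Bbc3 (0.49) and Mdm4 (0.17) the difference was small, and for Sesn1 it had the other sign (-0.40).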

How the results depend on the processing

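No result of the p53 target genes turned direction under the alternatives run. For G1KO, 8 of 11 alternatives left the count of 5 called members within 1.5 times, and the exceptions were median centring (1 called, 1 lower), 1.5-fold (15 called, 1 higher and 14 lower) and 4-fold (1 called, 1 lower). With 1 array left out it was 6 to 8, all lower, and 8 without the array that had the knockout in Cy3. The median was -0.52 to -0.45 under the alternatives. For the RNA labelled G2KO, 9 of 11 left the count of 16, and the exceptions were median centring (8 called, 8 higher and 0 lower) and 4-fold (4 called, 4 higher and 0 lower). Called lower were 2 by the scanner's or the series table's ratio and 3 at 1.5-fold. Its median was 0.94 with an offset of 16 or median centring, 1.07 by the scanner's or series table's ratio, and 1.02 with older symbols, which added Aen. With 1 array left out the counts were 17 to 18 called, 16 higher and 1 to 2 lower, and the median 0.85 to 0.91. The cause of these shifts was not tested.

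Members called in both comparisons numbered 9 in opposite directions and 3 in the same at 1.5-fold, 0 in opposite directions at 4-fold or by median centring, 1 by the median of a gene's probes, and 2 to 4 opposite and 0 to 1 the same with 1 array left out. Between the WT RNAs, 4-fold left 5 called, 5 lower and 0 higher, 1.5-fold gave 4 higher, and the median of probes or no normalisation between arrays 1 higher. Other p53 targets called in G1KO were 3 by median centring, 8 at 1.5-fold and 1 at 4-fold, and 5 to 6 with 1 array left out, and in the RNA labelled G2KO 13 at 1.5-fold, 2 at 4-fold and 7 to 9 with 1 array left out. Regulators called in G1KO were 1 by the scanner's or table's ratio and 2 at 1.5-fold, and in the RNA labelled G2KO 1 at 4-fold or with both genotypes above background. Members lowest in the WT of G2KO numbered 19 to 21. No paired analysis was possible because each genotype had 1 culture and the labels give no replicate numbers.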
